A study of Mus musculus with 16 samples.

Results

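The miR-26 family in this series comprised 4 mature miRNAs of the 1167 in the deposited count table: mmu-miR-26a-2-3p, mmu-miR-26b-3p, mmu-miR-26a-5p and mmu-miR-26b-5p (written below without the mouse prefix mmu). They were chosen by name, for how their total reads moved over the time course: a passenger arm that dropped soon after serum, beside guide arms that moved little. Their levels are therefore a description and carry no test. Another mature miRNA of the family, miR-26a-1-3p, is also in the table and was added for comparison.

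The cells belonged to 3T9, an immortalised mouse embryo fibroblast line. Those given medium with 10% fetal bovine serum were collected after 1, 2, 4, 6, 8, 10 and 12 h, and the 0 h cells had been deprived of serum for 72 h, as had all the others before stimulation. Each of the 8 times had 2 small RNA libraries, from independent experiments called experiment 1 and experiment 2 here, with 5852087 to 7783249 miRNA reads per library. The study's question was how miRNA levels respond when quiescent fibroblasts meet serum. The 7 fibroblast miRNAs checked were all present, with a summed level of 388491 to 405738 CPM at 12 h and 354133 to 360353 CPM at 0 h (CPM gives a miRNA's reads relative to all miRNA reads of its library, on a common scale). The 5 blood markers summed to at most 4.03 CPM, the liver marker miR-122-5p to at most 0.597 CPM, and the pluripotent markers present stayed near 0. The neural miR-9-5p reached 10.7 CPM and the epithelial miR-205-5p 60.3 to 131 CPM, while the other 4 epithelial markers stayed at or below 1.22 CPM. In such bulk libraries, fewer cells with a miRNA and less of it per cell cannot be told apart.

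A miRNA hairpin is cut by Drosha and Dicer into a duplex. One strand, the guide, is kept by an Argonaute protein and directs the silencing of messenger RNAs through its seed (bases 2 to 8), whereas the other, the passenger strand, is usually degraded. In mammals the miR-26 hairpins lie inside the Ctdsp genes, which encode small phosphatases of the RNA polymerase II carboxy-terminal domain. The phosphatases and the miRNAs have both been described as brakes on the G1 to S phase transition, which serum-fed fibroblasts approach.

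The mature sequences follow because the 2 hairpins of miR-26a share their guide and differ in their passenger arm, so only the passenger arms tell the loci apart. They are RefSeq sequences of GRCm38.p6, 5′ to 3′, with the seed in capitals.
miR-26a-2-3p: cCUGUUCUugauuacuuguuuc
miR-26b-3p: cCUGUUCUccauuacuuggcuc
miR-26a-1-3p: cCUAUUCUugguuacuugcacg
miR-26a-5p: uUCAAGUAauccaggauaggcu
miR-26b-5p: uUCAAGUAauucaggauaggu
The guides shared the seed UCAAGUA, which no other mature mouse miRNA of the RefSeq table carries. They differed at 2 of 21 positions, C11U and C21U (miR-26a-5p base first, counted from the 5′ end), both outside the seed. The passenger arms miR-26a-2-3p and miR-26b-3p shared the seed CUGUUCU and differed at 4 of 22 positions. miR-26a-1-3p differed from miR-26a-2-3p at 6 of 22 positions, of which G4A (miR-26a-2-3p base first) lies in the seed.

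The hairpins are shown next, with both mature arms in capitals, because the bases that follow each guide decide which 3′ additions are counted as templated, that is, matching the hairpin.
Mir26a-2: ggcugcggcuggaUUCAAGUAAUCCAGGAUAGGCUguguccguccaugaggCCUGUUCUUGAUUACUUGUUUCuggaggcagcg
Mir26b: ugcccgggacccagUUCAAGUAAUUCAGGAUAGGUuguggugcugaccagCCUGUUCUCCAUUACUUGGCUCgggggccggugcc
Mir26a-1: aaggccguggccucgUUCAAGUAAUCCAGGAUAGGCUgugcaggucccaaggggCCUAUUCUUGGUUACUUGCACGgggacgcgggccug
Mir26a-2 lies at chr10:126995530-126995613, plus strand, in intron 5 of the Ctdsp2 transcript Ctdsp2-202 in the GENCODE annotation of the same build. Its last base is also the annotated first base of 2 shorter Ctdsp2 transcripts. Mir26b lies at chr1:74394310-74394394, plus strand, in intron 4 of Ctdsp1-201. Mir26a-1 lies at chr9:119031796-119031885, plus strand, in intron 5 of Ctdspl-201. The miRNA library does not measure the host transcripts, so the hosts' own levels were not analysed here.

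The Mir26a-2 passenger arm, mmu-miR-26a-2-3p, was the member with the widest range. It stood at 21.8 CPM in experiment 1 and 23.8 CPM in experiment 2 at 0 h, then 9.68 and 11.0 CPM at 1 h, 5.39 and 8.15 CPM at 2 h, 4.55 and 5.46 CPM at 4 h, and 3.01 and 2.86 CPM at 6 h. The later values were 3.76 and 4.24 CPM at 8 h, 5.40 and 4.24 CPM at 10 h, and 7.33 and 5.98 CPM at 12 h. Every serum-fed library was thus below both 0 h libraries, and the lowest point was 6 h in each experiment. Relative to the 0 h level of its own experiment, 44.3% and 46.1% remained after 1 h of serum. By 6 h these values were 13.8% and 12.0%, and by 12 h they stood at 33.6% and 25.1%.

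**Figure D1:**
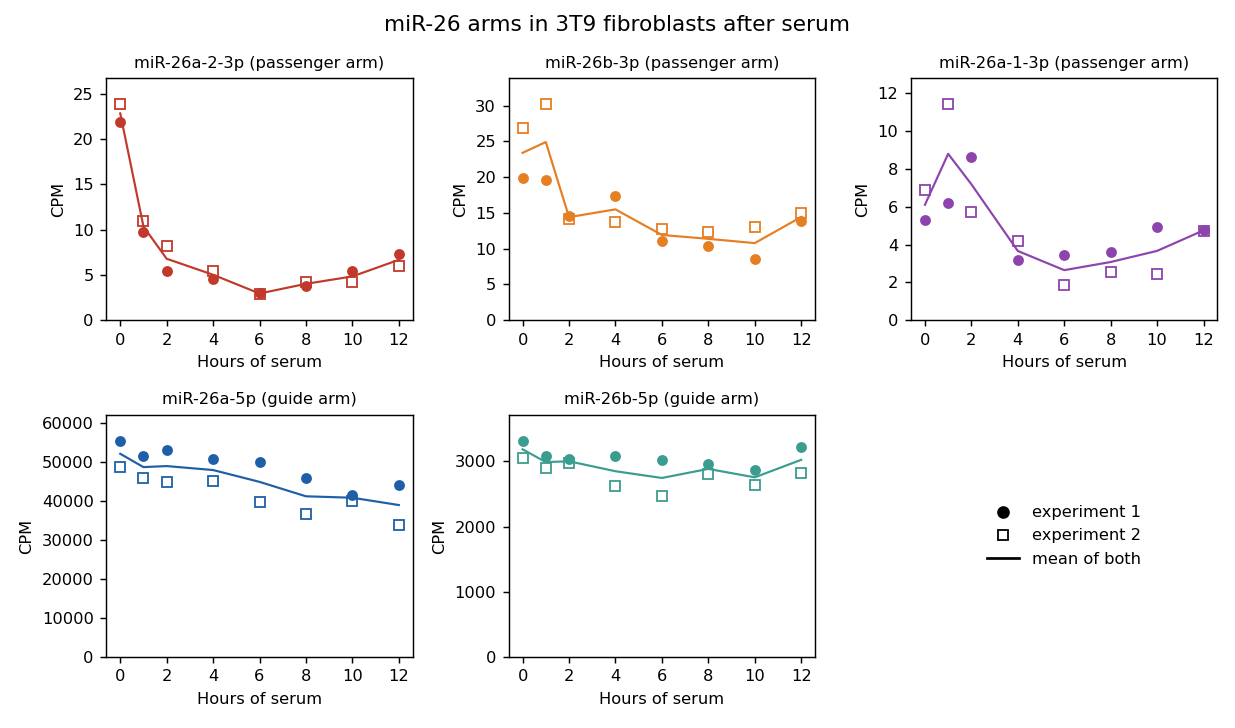
CPM of each mature miR-26 arm against hours of serum, with a filled circle for experiment 1, an open square for experiment 2 and a line through their mean, each panel on its own linear axis from 0. miR-26a-2-3p drops at once and is lowest at 6 h (3.01 and 2.86 CPM), whereas the guide arms stay within 1.64-fold between their highest and lowest libraries.

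The change in miR-26a-2-3p, on the log2 scale with an approximate standard error (SE) from a fit of all 16 libraries, was -1.14 ± 0.21 after 1 h, -1.75 ± 0.22 after 2 h, -2.19 ± 0.23 after 4 h and -2.95 ± 0.25 after 6 h. It then moved back, with -2.51 ± 0.24 after 8 h, -2.24 ± 0.23 after 10 h and -1.77 ± 0.22 after 12 h. Among the 449 miRNAs that passed the filter on low counts, this change was the lowest at 4, 6 and 8 h, the second lowest at 2 and 10 h and the fourth lowest at 1 and 12 h. The median over all 449 stayed between -0.04 and 0.00 at these times. Counts were small, from 17 to 176 reads per library.

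Ordered by mean level, the times ran from 0 h (22.8 ± 1.41 CPM, SD, n = 2) through 1 h (10.3 ± 0.93), 2 h (6.77 ± 1.95), 12 h (6.65 ± 0.95), 4 h (5.01 ± 0.65), 10 h (4.82 ± 0.82) and 8 h (4.00 ± 0.33) to 6 h (2.93 ± 0.11). The libraries of 2 h and 12 h overlapped, as did those of 4 h and 10 h. The 10 h and 8 h libraries met at 4.24 CPM, and the other neighbours in this order did not overlap. From 2 h on, however, the levels rest on 17 to 54 reads per library, and the order of these times was not tested.

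mmu-miR-26b-3p, the passenger arm of Mir26b, was lower later and by less. It stood at 19.9 and 26.9 CPM at 0 h in experiments 1 and 2, 19.6 and 30.2 CPM at 1 h, 14.6 and 14.2 CPM at 2 h, and 17.3 and 13.7 CPM at 4 h. From there it stood at 11.0 and 12.8 CPM at 6 h, 10.4 and 12.4 CPM at 8 h, 8.50 and 13.0 CPM at 10 h, and 13.9 and 14.9 CPM at 12 h. The 1 h libraries overlapped those of 0 h, and every library from 2 h on was below both 0 h libraries. The log2 change was 0.09 ± 0.25 at 1 h, -0.70 ± 0.25 at 2 h, -0.98 ± 0.26 at 6 h, -1.12 ± 0.26 at 10 h and -0.70 ± 0.26 at 12 h. At 6 h this was the 19th lowest of 449 changes and at 12 h the 52nd lowest. The libraries of neighbouring times overlapped from 6 h to 10 h, with 52 to 206 reads per library over the course.

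mmu-miR-26a-5p, the guide of both miR-26a hairpins and the sixth most abundant miRNA of the table, held 33913 to 55451 CPM (median 45587). It stood at 55451 and 48893 CPM at 0 h, 51513 and 45978 CPM at 1 h, 50015 and 39889 CPM at 6 h, and 44083 and 33913 CPM at 12 h in experiments 1 and 2. For miR-26a-5p, each serum-fed library was below the 0 h library of its own experiment, and the 1 h, 2 h, 4 h and 6 h libraries overlapped the 0 h range. At 12 h the level was 79.5% and 69.4% of 0 h, with a log2 change of -0.42 ± 0.15, beside -0.21 ± 0.15 at 6 h. Scaling by total counts in place of TMM (trimmed mean of M-values) gave -0.58 at 12 h, while it moved the median of all 449 miRNAs to -0.15.

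mmu-miR-26b-5p, the guide of Mir26b, was the most even member, at 2475 to 3313 CPM (median 2964) and 37th in abundance. It stood at 3313 and 3059 CPM at 0 h, 3016 and 2475 CPM at 6 h, and 3225 and 2824 CPM at 12 h. The log2 change was -0.21 ± 0.13 at 6 h and -0.07 ± 0.13 at 12 h. Leaving out the experiment 2 library of 12 h turned the 12 h value to 0.05, and leaving out the experiment 1 library of 0 h turned it to 0.02, so its direction at 12 h was not fixed.

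**Figure D2:**
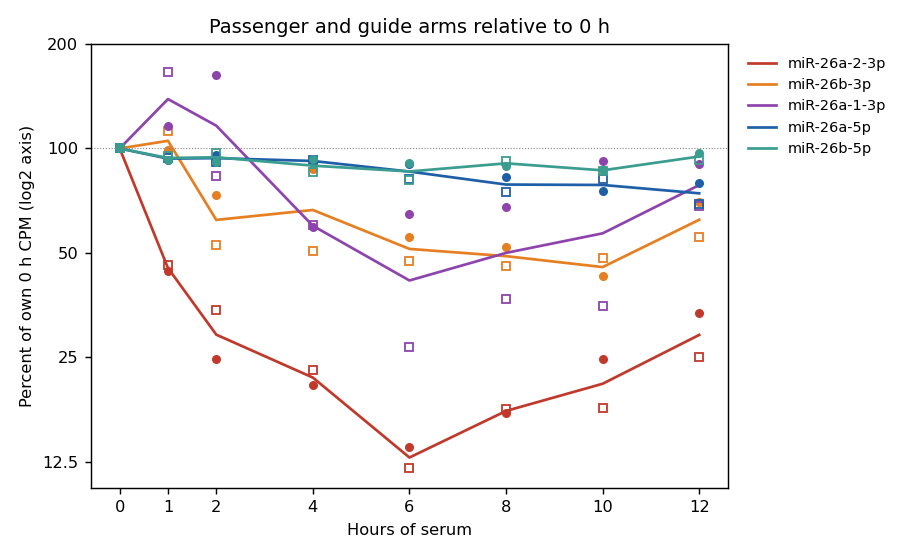
Level of each arm as a percentage of the 0 h CPM of its own experiment (log2 axis), with circles for experiment 1, squares for experiment 2 and lines through the geometric mean. miR-26a-2-3p lies at 44.3% and 46.1% at 1 h, when both guides are still at 92.9% or above.

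The passenger arm and the guide of a hairpin are cut from the same precursor, so their ratio was set beside their levels. There were 0.440 ± 0.066 reads of miR-26a-2-3p per 1000 reads of miR-26a-5p at 0 h, 0.213 ± 0.036 at 1 h, 0.0659 ± 0.0081 at 6 h and 0.171 ± 0.007 at 12 h (SD, n = 2 each). For miR-26b-3p, there were 7.40 ± 1.99 reads per 1000 reads of miR-26b-5p at 0 h, with 8.39 ± 2.85 after 1 h, 4.41 ± 1.06 after 6 h and 4.80 ± 0.69 after 12 h of serum. The Mir26b ratios of 6 h and 12 h lay below both 0 h ratios, but the SD at 0 h and 1 h was wide. Reads of miR-26a-5p come from both of its hairpins and cannot be split between them.

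miR-26a-1-3p, the passenger arm of the other miR-26a hairpin, was not chosen by its level and could be tested. It stood at 5.32 and 6.90 CPM at 0 h in experiments 1 and 2, 6.18 and 11.4 CPM at 1 h, 8.65 and 5.74 CPM at 2 h and 3.16 and 4.16 CPM at 4 h. It then stood at 3.44 and 1.85 CPM at 6 h, 3.61 and 2.54 CPM at 8 h, 4.91 and 2.42 CPM at 10 h, and 4.78 and 4.72 CPM at 12 h. All libraries from 4 h on were below both 0 h libraries. At 1 h and at 2 h a library of each time lay within the 0 h range and the other lay above it. The level changed over the 7 later times in edgeR's quasi-likelihood test (adjusted p = 0.0461), a call that 13.8% of the 449 miRNAs received.

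That call for miR-26a-1-3p rested on few reads, 11 to 78 per library. It was lost in edgeR's test when any of 12 of the 16 libraries was left out (adjusted p = 0.0521 to 0.126) and was kept only without 1 h, 6 h or 10 h of experiment 1 or 10 h of experiment 2. Over all single omissions the edgeR adjusted p ran from 0.0189 to 0.126, and the replicate block gave 0.0223. The lowest value over all alternatives, 3.95e-06, came from neither of these. At 6 h its log2 change was -1.18 ± 0.42, lower in both experiments, with an adjusted p of 0.105 in edgeR's test and 0.0396 with no filter on low counts. At 1 h the change was 0.52 ± 0.36 (adjusted p = 0.994 in edgeR's test).

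The 2 miR-26a passenger arms gave the share of each locus among their joint reads. miR-26a-2-3p made up 80.4% (95% Wilson interval 74.3% to 85.4%) and 77.5% (71.7% to 82.5%) of these reads at 0 h in experiments 1 and 2. At 1 h it made up 61.0% (52.0% to 69.3%) and 49.0% (41.2% to 56.9%), while 6 h gave 46.7% (32.9% to 60.9%) and 60.7% (42.4% to 76.4%), and 12 h gave 60.5% (49.6% to 70.4%) and 55.9% (44.1% to 67.1%). Its share was lower in every serum-fed library than in either 0 h library, with 38.4% at 2 h of experiment 1 as the lowest and 63.6% at 10 h of experiment 2 as the highest. The intervals cover counting error only, because the reads carry no molecular identifiers. Since miR-26a-2-3p was chosen for its drop after serum, its higher share at 0 h follows in part from that choice and is a description.

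**Figure D3:**
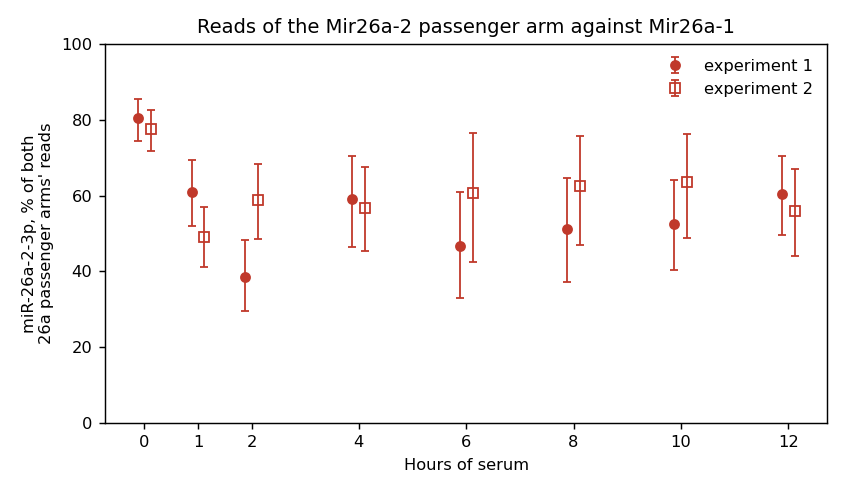
Reads of miR-26a-2-3p as a percentage of the reads of miR-26a-2-3p and miR-26a-1-3p together, per library, against hours of serum, with 95% Wilson intervals as bars. Both 0 h libraries (80.4% and 77.5%) stand above all 14 serum-fed libraries, which follows in part from the choice of miR-26a-2-3p for its drop.

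At 6 h the passenger arms lay toward the low end of all 449 changes, which ran from -2.95 to 4.63 on the log2 scale. miR-26a-2-3p was the lowest, miR-26a-1-3p the 11th lowest and miR-26b-3p the 19th lowest. The guides, both at -0.21, ranked 143rd and 144th from the low end.

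**Figure D4:**
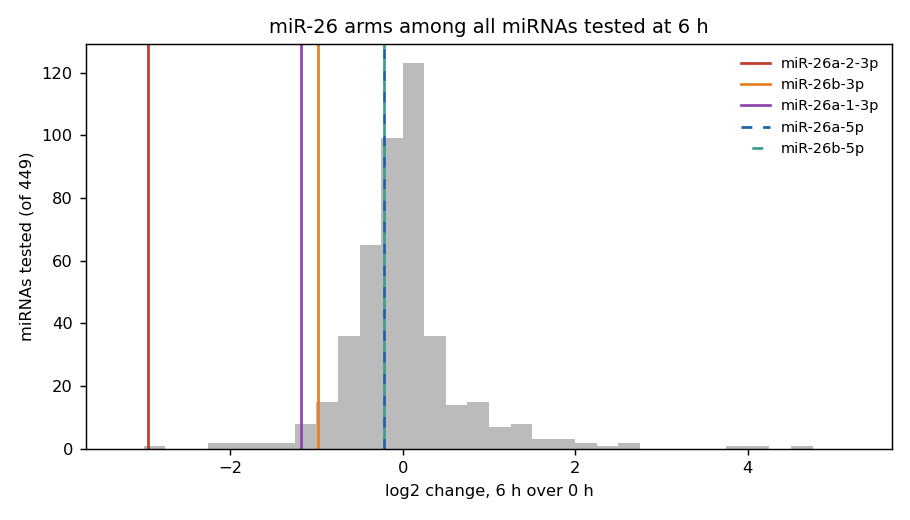
Number of miRNAs by log2 change at 6 h over 0 h among the 449 tested (bars of width 0.25), with a vertical line for each miR-26 arm. miR-26a-2-3p is at the low end at -2.95, and the 2 dashed guide lines coincide at -0.21.

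The profiles most like that of miR-26a-2-3p, by Pearson's r of log2 CPM (with 0.5 added) over the 8 time means, were those of miR-501-5p (0.95), miR-491-5p (0.95), miR-1839-3p (0.94), miR-322-5p (0.92) and miR-7653-3p (0.92). These r values are a description over 8 points that share their libraries. miR-501-5p was alike in each experiment (0.94 and 0.94) and held 5.22 ± 0.70 CPM at 6 h, against 15.5 ± 2.36 CPM at 0 h (SD, n = 2). Within experiments 1 and 2, r was 0.67 and 0.32 for miR-491-5p, 0.56 and 0.92 for miR-1839-3p, 0.56 and 0.99 for miR-322-5p, and 0.83 and 0.67 for miR-7653-3p. miR-7653-3p held 0.455 ± 0.168 CPM at 6 h, against 1.86 ± 0.53 CPM at 0 h (SD, n = 2). That 6 h level lies within the 0.385 to 0.513 CPM that a count of 0 allows. miR-491-5p was also low, at 0.863 ± 0.206 CPM at 6 h and 1.79 ± 0.43 CPM at 0 h, so both profiles rest on few reads. Inside the family, miR-26b-5p ranked 15th (0.89), miR-26b-3p 19th (0.86), miR-26a-1-3p 49th (0.75) and miR-26a-5p 99th (0.60).

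The ends of the reads were not used to choose the members, so they could be tested. The table sorts the reads of each miRNA into those equal to its reference, trimmed, or extended at the 5′ or the 3′ end, by templated or non-templated bases. The non-templated form took in such bases at either end, so it overlaps the 5′ extended form, and reads with only A or only U added at the 3′ end are part of it. Terminal uridylyltransferases such as Zcchc11 add U to miRNA ends, and Zcchc11 has been described as acting on mature miR-26a. For each form, the share of a miRNA's reads was fitted against hours of serum with edgeR's quasi-likelihood test, as a slope in log2 odds per hour.

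Of 13 member forms with enough reads (a mean of at least 10 in and out of the form), 7 had a slope past the threshold. All 7 were in the guides, 6 of them higher and 1 lower. Over all 956 forms of all miRNAs, 31.2% were called, 19.5% higher and 11.7% lower. With the replicate block the test called 10 of the 13, beside 43.3% of all. No form of miR-26a-2-3p had enough reads, its trimmed reads averaging 4.38 per library. The guide forms averaged 275 to 31760 reads per library, and the part of depth in which forms were called was not tested.

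miR-26a-5p became more trimmed. Its trimmed share was 5.04% and 5.62% at 0 h in experiments 1 and 2, with 4.87% and 5.66% after 1 h of serum and 5.80% and 5.94% after 6 h. It reached 6.80% and 7.48% by 10 h, then 7.94% and 8.53% by 12 h. The shares stayed level up to 2 h and were above both 0 h libraries from 6 h on, with a slope of 0.0568 ± 0.0066 (edgeR adjusted p = 4.10e-06). Among 248 miRNAs with this form, 19.8% rose and the median slope was -0.0006.

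Non-templated additions to miR-26a-5p, at both ends together, also rose, to 11.6% and 12.1% at 12 h, against 9.13% and 9.04% at 0 h in experiments 1 and 2. The slope was 0.0381 ± 0.0045 (edgeR adjusted p = 5.78e-06), beside a median slope of 0.0195 over 209 miRNAs, of which 30.1% rose. Those at the 3′ end alone made up 11.1 ± 0.21% of reads at 12 h, against 8.21 ± 0.17% at 0 h (SD, n = 2), and those at the 5′ end 0.807 ± 0.146%, against 0.871 ± 0.106%. Within the 3′ additions, the reads with U added rose to 7.07 ± 0.18% at 12 h, against 5.65 ± 0.34% at 0 h (SD, n = 2), with an edgeR adjusted p of 1.01e-04. Among 129 miRNAs with a U-added form, 5.43% rose, 15.5% fell and the median slope was -0.0023. Additions to the 3′ end of miR-26a-5p classed as mixed stood at 1.55 ± 0.045% at 12 h, against 0.843 ± 0.030% at 0 h (SD, n = 2), and were not fitted.

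Reads of miR-26a-5p with A added stood at 1.45% and 2.41% at 12 h, against 1.04% and 1.62% at 0 h in experiments 1 and 2. Every library of experiment 2 lay above every library of experiment 1, with ranges of 1.62% to 2.41% and 1.04% to 1.45%. The slope of 0.0449 ± 0.0218 missed the threshold in edgeR's test (adjusted p = 0.134). A block for the replicate number brought the edgeR adjusted p to 1.81e-08. Within experiments 1 and 2, each fitted alone after the data had been seen, the edgeR adjusted p was 1.69e-06 and 1.56e-05. Over the 135 miRNAs with an A-added form, 23.0% rose and the median slope was 0.0295. Templated 3′ extensions, a minor form of miR-26a-5p, rose to 0.456 ± 0.107% at 12 h, against 0.285 ± 0.044% at 0 h (edgeR adjusted p = 0.00226). The 5′ extended form, nearly all of it non-templated, at 0.705% to 1.00% of reads, had a slope of -0.0087 ± 0.0093 (edgeR adjusted p = 0.523, and 0.0420 with the block).

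miR-26b-5p differed in its main form. Reads equal to its 21-base reference made up only 8.90% to 10.9% of its reads, and templated 3′ extensions made up 71.1% to 78.8%. In its hairpin the base after the reference is U, whereas after miR-26a-5p it is G, so a single added U counts as templated for miR-26b-5p and as non-templated for miR-26a-5p. The templated share of miR-26b-5p was 78.8% and 77.9% at 0 h in experiments 1 and 2, with 77.0% and 75.5% after 2 h, 76.1% and 74.1% after 6 h, and 73.0% and 71.1% after 12 h of serum. All libraries of serum-fed cells were below the 0 h library of their own experiment, and the share fell with a slope of -0.0370 ± 0.0054 (edgeR adjusted p = 4.52e-05). Among 188 miRNAs with this form, 12.8% fell and 14.9% rose.

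Over the same hours the non-templated additions to miR-26b-5p rose to 14.5% and 15.3% at 12 h, against 10.5% and 10.1% at 0 h in experiments 1 and 2. Their slope was 0.0531 ± 0.0058 (edgeR adjusted p = 1.98e-06). Additions classed as mixed, the largest part of this form, stood at 8.97 ± 0.85% at 12 h, against 5.53 ± 0.16% at 0 h (SD, n = 2), and were not fitted. Reads with U added, a smaller part, rose to 4.28 ± 0.54% at 12 h, against 3.40 ± 0.38% at 0 h (edgeR adjusted p = 8.72e-04). These leave out a single added U, which matches the hairpin. The trimmed share, counted from the 21-base reference that most reads exceed, was 1.89% to 2.80% and had a slope of 0.0091 ± 0.0086 (edgeR adjusted p = 0.457). Reads equal to that reference stood at 10.6 ± 0.44% at 12 h, against 9.16 ± 0.38% at 0 h (SD, n = 2). Reads with A added had a slope of 0.0265 ± 0.0101, below the median of 0.0295 over all miRNAs with this form. Its edgeR adjusted p was 0.0543, or 0.00191 with the block, and 0.143 in experiment 1 alone and 0.0196 in experiment 2 alone. It also passed the threshold when any of 5 libraries was left out, those of 6, 8 and 12 h of experiment 1 and of 1 and 4 h of experiment 2 (edgeR adjusted p = 0.0222 to 0.0467). The class names do not tell how an A added after the templated U of miR-26b-5p is counted.

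**Figure D5:**
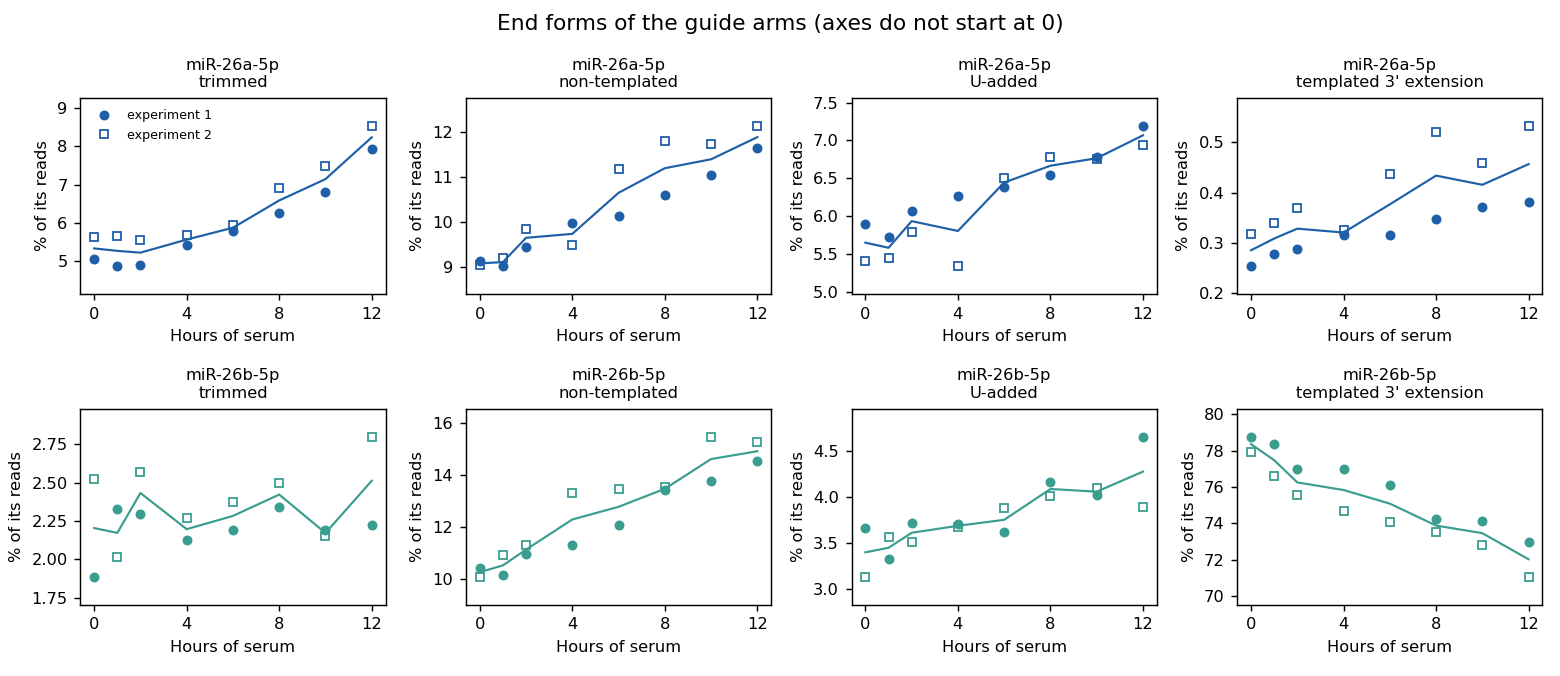
Share of the reads of miR-26a-5p (top) and miR-26b-5p (bottom) in 4 end forms (non-templated covers both ends) against hours of serum, with circles for experiment 1, squares for experiment 2 and a line through their mean, on axes that do not start at 0. The trimmed share of miR-26a-5p reaches 7.94% and 8.53% at 12 h, while the templated share of miR-26b-5p reaches 73.0% and 71.1%.

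The guides' slopes were then compared directly, in a test added after the data had been seen: a 2-sided permutation of the times over the 16 libraries, adjusted over 5 forms. The slope of miR-26a-5p minus that of miR-26b-5p was 0.0477 for trimmed reads (permutation p = 1.20e-04, adjusted 4.50e-04) and 0.0917 for templated extensions (permutation p = 1.80e-04, adjusted 4.50e-04). It was -0.0150 for non-templated additions (adjusted permutation p = 0.0247). With the times permuted only within each experiment, likewise added after the data had been seen, these 3 stayed past the threshold (adjusted permutation p = 0.00115, 5.0e-05, for which the raw p of 1e-05 is the smallest possible, and 0.0264). For A-added reads the difference was 0.0184, with an adjusted permutation p of 0.365 over all libraries and 0.0461 within experiments. These 4 differences had the same sign in both experiments. The difference was 0.0029 for U-added reads (adjusted permutation p = 0.592, with opposite signs in the 2 experiments). Each form is counted from its guide's own reference, 22 bases for miR-26a-5p and 21 for miR-26b-5p. Most miR-26b-5p reads run past theirs, so on losing a base they do not count as trimmed. Templated extensions are the main form of miR-26b-5p and a minor form of miR-26a-5p, and a single added U falls in different forms. These differences thus compare unlike reads, and the part of the reference length was not tested.

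Of the passenger arms, miR-26b-3p alone had forms to fit. Its trimmed share was 16.1% and 20.0% at 12 h, against 14.1% and 10.1% at 0 h in experiments 1 and 2, with a slope of 0.0525 ± 0.0319 (edgeR adjusted p = 0.234). The slope was -0.0222 in experiment 1 alone and 0.122 in experiment 2 alone (edgeR adjusted p = 0.720 and 0.0134), so the trend was not seen in experiment 1 alone. Its non-templated share had a slope of 0.0409 ± 0.0286 (edgeR adjusted p = 0.302). Pooled over all libraries, 87.1% of 884 reads of miR-26a-2-3p, 71.7% of 1750 reads of miR-26b-3p and 88.4% of 550 reads of miR-26a-1-3p equalled their references.

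A test of any change over the times, which needs no straight line, called 3 of the 13 forms, beside 8.47% of all 956. These were the trimmed (adjusted p = 0.00769) and non-templated (0.0275) forms of miR-26a-5p and the non-templated form of miR-26b-5p (0.0183), by edgeR's quasi-likelihood test. With the block it called 8 of 13, beside 35.8% of all, the further 5 being the templated and U-added forms of both guides and the A-added form of miR-26a-5p. Without 0 h of experiment 1 or of experiment 2 the count was 1, and without 12 h of experiment 2 it was 0. The non-templated form of miR-26a-5p lost its call without any of 10 libraries, those of 0, 1, 2 and 12 h of either experiment and of 4 and 10 h of experiment 2 (edgeR adjusted p = 0.0520 to 0.0929). The non-templated form of miR-26b-5p lost it without 0 h of either experiment or 12 h of experiment 2 (edgeR adjusted p = 0.0574 to 0.0638), and the trimmed form of miR-26a-5p without 12 h of experiment 2 (edgeR adjusted p = 0.0521). The linear trend called 7 or 8 forms whichever library was left out.

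Other passenger and guide arms whose names carry a locus number tell 1 hairpin from another as miR-26a-2-3p does, and 27 of the 44 in the table, the miR-26 arms aside, passed the filter. At 6 h, 2 of the 27 fell (2.90% of all 449 did), let-7a-1-3p and miR-16-1-3p, and 3 rose (4.90% of all), miR-125b-1-3p, miR-92a-1-5p and miR-29b-1-5p. At 12 h, 1 fell (6.01% of all) and 5 rose (8.24% of all). With the block, 4 fell (8.46% of all) and 5 rose (8.69% of all) at 6 h, and 3 fell (12.2% of all) and 7 rose (11.8% of all) at 12 h. The median log2 change of the 27 was -0.11 at 6 h and 0.07 at 12 h, beside -0.02 and 0.00 over all 449. The names let-7a-1-3p and miR-16-1-3p were added after their values were seen, and leaving out any of the 16 libraries left 0 or 1 arm that fell at 6 h.

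At 12 h the arm that fell was miR-24-1-5p, at 6.28 ± 0.21 CPM, against 11.5 ± 1.58 CPM at 0 h (SD, n = 2; log2 change -0.87 ± 0.24, edgeR adjusted p = 0.0278). No arm was called lower at 12 h without either library of 0 h or either of 12 h, and 2 were without either library of 2 h. miR-92a-1-5p, from the miR-17-92 cluster of proliferation-linked miRNAs, rose to 400 ± 2.42 CPM at 12 h, against 76.9 ± 20.9 CPM at 0 h (log2 change 2.38 ± 0.18, edgeR adjusted p = 1.52e-06). miR-125b-1-3p, the most abundant of these arms, rose to 2667 ± 70.9 CPM at 12 h, against 799 ± 93.1 CPM at 0 h. miR-29b-1-5p (log2 change 1.67), miR-365-2-5p (1.40) and miR-30c-2-3p (0.77) rose as well, and 3 arms in place of 5 rose without 0 h of experiment 1 or 12 h of experiment 2. Of the other abundant arms, miR-129-2-3p was lower in both experiments, at 71.5 and 161 CPM at 12 h, against 260 and 412 CPM at 0 h. Its log2 change of -1.53 ± 0.55 missed the threshold (edgeR adjusted p = 0.0831). miR-3074-2-3p stood at 248 ± 1.87 CPM at 12 h, against 240 ± 13.0 CPM at 0 h, and was not called. These calls are from the fit without the block, and the 3 arms called lower at 12 h with it are not named here.

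At the remaining times, 1 of 27 arms was called at 1 h, 3 at 2 h, 9 at 4 h, 4 at 8 h and 6 at 10 h, beside 0.445%, 2.45%, 7.57%, 9.58% and 11.8% of all 449. With the block these counts were 1, 4, 10, 10 and 9, beside 1.11%, 6.90%, 14.7%, 18.0% and 18.7% of all. At 4 h in the fit without it, 4 of the 9 fell (2.90% of all) and 5 rose (4.68% of all). The arms that fell at 4 h were let-7c-1-3p, miR-181b-1-3p, let-7a-1-3p and miR-181a-1-3p, with log2 changes of -2.07, -1.24, -1.05 and -0.80, named after their values were seen. Their mean levels were 2.30, 7.54, 30.6 and 115 CPM. The change of let-7c-1-3p thus rests on few reads (SE 0.58, edgeR adjusted p = 0.0443). It was not called at 6 h (-0.90 ± 0.52) or 12 h (-0.09 ± 0.47). At that time miR-26a-2-3p stood at -2.19, miR-26b-3p at -0.60 and miR-26a-1-3p at -0.74.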

How the data were processed

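TruSeq small RNA libraries started from 1000 ng of total RNA, per the labels' protocols. The submitters' processing notes list CASAVA 1.8.0. How reads were aligned, with which miRBase release, and how reads matching several miRNAs were counted was not given in the sources used here. The authors deposited whole-number read counts for each sequence class of each miRNA, not normalized, per the file headers. The 8 classes of a miRNA were summed, after 1 identical duplicate of 6511 entries was dropped; the meaning of the classes was read from their names. A count of 0 allows 0.385 to 0.513 CPM per library (3 counts).

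CPM values used TMM factors of 0.935 to 1.07, except those of the cell type markers and of the limit for absent reads, which used library totals alone. edgeR 4.0.16 (limma 3.58.1, R 4.3.3) fitted all 16 libraries with time as a factor, filterByExpr at a minimum count of 10 (449 kept, 718 left out) and Benjamini-Hochberg adjustment over all miRNAs at 0.05. SE is approximate, from the change and its F statistic. End-form shares were fitted as paired counts (form, other reads) with a coefficient per library and form by hour, or form by time, adjusted over 956 forms. Both fits were also run on simulated data, and the outcome is not given here. DESeq2 1.42.0 and other settings were alternatives.

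The header names 2 sequencing runs, each holding all libraries of 1 experiment, so run and experiment cannot be told apart. The design text calls the experiments independent, and same-numbered libraries deviated together (28 pairs, correlations 0.13 to 0.60, median 0.29), so the replicate numbers were taken as pairing the samples. The main fits have no block; the fit with the replicate block is named where it changes a call. The members, the list of locus-numbered arms and the tests were chosen with earlier results of these data known. Named miRNAs were the members, the other miR-26 arm, the 5 profiles most like miR-26a-2-3p, the 4 most abundant locus-numbered arms and those called at 12 h. A further time point in the design text was not analysed here.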

Additional observations from a re-analysis of the deposited data

How the results depend on the processing

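The log2 change of miR-26a-2-3p at 6 h was -2.95 to -2.87 and at 12 h -1.91 to -1.60 when each library was left out in turn. The same omissions gave -0.34 to -0.036 at 6 h and -0.60 to -0.21 at 12 h for miR-26a-5p, -1.11 to -0.72 and -0.87 to -0.46 for miR-26b-3p, and -0.32 to -0.054 and -0.15 to 0.052 for miR-26b-5p. Total counts gave -0.58 for miR-26a-5p and -0.23 for miR-26b-5p at 12 h. The linear end-form trend called 7 to 10 member forms over all alternatives, with 17 forms fitted at a mean of at least 2 reads and 11 at a mean of at least 50. The trimmed slope of miR-26b-3p reversed to -0.0222 in experiment 1 alone. The test of any change called 5 forms at a mean of at least 50 reads, 8 with the replicate block, and 0 to 4 without single libraries. Among locus-numbered arms, 1 fell at 6 h with DESeq2 size factors and 2 at 12 h with total counts. With the replicate block 4 fell and 5 rose at 6 h and 3 fell and 7 rose at 12 h. Without single libraries, 0 to 1 fell and 3 rose at 6 h, and 0 to 2 fell and 3 to 6 rose at 12 h. For the end forms and miR-26a-1-3p, the replicate block changed no call other than those named in the results. Permuting times within experiments brought the A-added difference between the guides to an adjusted permutation p of 0.0461. The cause of these shifts was not tested. Depth limits the passenger arms, whose lowest libraries hold 17 (miR-26a-2-3p), 52 (miR-26b-3p) and 11 (miR-26a-1-3p) reads.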

Other observations

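Reads of miR-26a-5p with C added at the 3′ end made up 0.531% to 0.714% in experiment 1 and 0.234% to 0.362% in experiment 2, the opposite order to its A-added reads. Reads of miR-26a-5p with a C in front of the 5′ end had a median share of 0.858%, against 0.0137% for miR-26b-5p. The hairpins have G or A before miR-26a-5p and G before miR-26b-5p, so this C matches none of them.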
